A study of Mus musculus with 8 samples.

Results

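Early granulocyte-monocyte progenitors were examined as the bone marrow cells that held transcripts of Mpo and Cebpa but none of Irf8, Cebpe and the other genes barred by the rule below. Members were selected on raw UMIs (unique molecular identifiers, 1 per captured transcript). A cell had to hold at least 10 Mpo UMIs and at least 1 Cebpa UMI. It had to hold no UMI of Irf8, Cebpe, Ms4a2, Hlf or Mecom, and fewer than 30 UMIs of Camp, Ngp and Ltf together. The rule found 230 cells among 29891, or 0.769%. Because these genes chose the cells, their levels are given below as a description and support no result.

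The series compared SPF mice, kept in a specific pathogen-free facility, with CVT mice, which were moved to a conventional facility and co-housed for 1 month with mice of that facility. All were B6 females of 3 to 4 months, with no transgene or drug in either group. Bone marrow cells were sorted as KL cells, negative for the lineage markers CD3, CD4, CD8, CD45R, CD11b, TER119 and GR1 and positive for CD117, the receptor encoded by Kit. Cells of 10 mice per group were pooled into 4 samples of 2 or 3 mice, so that the pool was the replicate (n = 4 per group) and mice within a pool could not be told apart. SPF mice made up pools 1, 2, 7 and 8 and CVT mice pools 3, 4, 5 and 6, and mouse numbers ran through pools 1 to 4 and then pools 5 to 8. A cell was placed in its pool by the number at the end of its name.

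Granulocyte-monocyte progenitors give rise to neutrophils and monocytes. The transcription factor C/EBPα (Cebpa) works with PU.1 (Spi1) to start the myeloid program, Irf8 then drives the monocyte and dendritic branch, and C/EBPε (Cebpe) the later granulocyte stages. Azurophil granules are the first granules of the lineage to form, and hold myeloperoxidase (Mpo) with the serine proteases neutrophil elastase (Elane), proteinase 3 (Prtn3) and cathepsin G (Ctsg). Specific granules with Camp, Ngp and Ltf follow later. Stem cell regulators such as Hlf and Mecom are silenced before commitment.

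Promoters of the 4 major azurophil granule genes are shown because their transcripts varied together from cell to cell, as given further on. Each line holds the 250 bases before the annotated start, 5′ to 3′ on the gene's strand, from RefSeq for GRCm38.p6. The Mpo window is chr11:87793534-87793783 on the plus strand, that of Elane chr10:79886062-79886311 on the plus strand, that of Prtn3 chr10:79879417-79879666 on the plus strand and that of Ctsg chr14:56102575-56102824 on the minus strand. Capitals mark GAGGAA, a core of the kind bound by PU.1.
Mpo: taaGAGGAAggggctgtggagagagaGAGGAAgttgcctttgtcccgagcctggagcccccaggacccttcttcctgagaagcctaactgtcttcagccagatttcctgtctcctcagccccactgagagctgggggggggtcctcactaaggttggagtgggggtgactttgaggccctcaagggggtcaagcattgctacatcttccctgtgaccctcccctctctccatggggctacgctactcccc
Elane: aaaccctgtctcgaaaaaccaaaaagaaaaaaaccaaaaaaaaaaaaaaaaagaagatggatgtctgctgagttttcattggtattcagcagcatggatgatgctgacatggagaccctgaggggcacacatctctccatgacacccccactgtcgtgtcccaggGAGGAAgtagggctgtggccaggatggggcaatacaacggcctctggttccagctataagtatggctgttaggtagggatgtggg
Prtn3: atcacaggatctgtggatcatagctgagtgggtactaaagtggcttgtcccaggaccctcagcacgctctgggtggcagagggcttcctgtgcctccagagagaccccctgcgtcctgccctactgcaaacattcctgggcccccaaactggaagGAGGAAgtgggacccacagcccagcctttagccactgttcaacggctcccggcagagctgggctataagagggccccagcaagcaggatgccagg
Ctsg: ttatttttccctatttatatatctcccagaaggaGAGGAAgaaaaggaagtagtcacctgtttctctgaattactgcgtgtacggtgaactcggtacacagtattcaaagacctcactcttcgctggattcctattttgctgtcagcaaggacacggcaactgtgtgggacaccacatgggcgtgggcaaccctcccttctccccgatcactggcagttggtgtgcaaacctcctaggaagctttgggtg

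All 4 windows held GAGGAA, 2 matches in Mpo and 1 in each of the others, all on the gene's own strand. The motif was searched on both strands, and 23.3% of the 32851 promoter windows of the same length held it. In Elane the match lay 85 to 80 bases before the start, and in Prtn3 95 to 90 bases before it. The starts of Elane and Prtn3 lie 6645 bases apart on chromosome 10, on the same strand. The C/EBP-type letters TTNNGNAA had no match in the 4 windows, and 36.8% of all windows held at least 1. The shorter Myb-type letters AACNG matched in all 4 and in 74.2% of all windows. Matches of GAGGAA and AACNG did not overlap. These are matches of letters, not measured binding.

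Members per pool numbered 6, 28, 15 and 35 in SPF pools 1, 2, 7 and 8 and 31, 32, 38 and 45 in CVT pools 3 to 6. Over all KL cells, the pools held 1888 to 4845 cells, 19041749 to 59812346 UMIs and a median of 7529.5 to 12771.5 UMIs per cell. Members of a pool summed to 47494 to 528176 UMIs, the fewest in SPF pool 1, where 3 UMIs correspond to 63.2 CPM (counts per 1e6 UMIs). CPM is the share of a gene among all UMIs of the members of a pool, on the usual scale of counts per 1e6. A total of 522 barcodes occurred in more than 1 pool, in 1048 cells, of which 8 were members. Intervals on counts cover counting error only.

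Transcripts of granule proteases were found in nearly all members. Prtn3 was found in 230 of 230 members, Ctsg in 229, Srgn, the proteoglycan core that packs granule proteases, in 230, and Spi1 in 205. Kit was found in 128 and Cd34, a surface marker of progenitors, in 218. Other marker genes of the stage were found less widely than Prtn3 and Ctsg. Among the 26 members with 0, 117 with 1 to 9 and 87 with at least 10 Elane UMIs, Ms4a3 was found in 12, 59 and 78. Clec12a was found in 6, 56 and 73 of them, and Csf3r in 6, 26 and 24. Fcgr3, a surface marker gene, was at 55.0 CPM in CVT and 71.7 CPM in SPF members. Itgam, which encodes the CD11b used for depletion, was found in 15 and Ly6g, a GR1 antigen, in 9. Prtn3, Ctsg and Elane were also seen among the 3905 committed erythroid cells (at least 5 Car1 UMIs with Ermap and Klf1), which should lack them. Cells with at least 5000 UMIs, 224 of them members, were thinned to 5000. Ctsg was then detected in 99.1% of these members against 26.9% of such erythroid cells, Prtn3 in 100% against 33.7% and Elane in 77.2% against 35.2%. Median depth before thinning was 11067 UMIs in members and 19660 in erythroid cells.

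Most cells with Mpo and Cebpa also held an Irf8 transcript and so fell outside the rule. Of 7921 cells with at least 10 Mpo UMIs, 4769 also held Cebpa. Among these 4769 cells, 3749 held an Irf8 UMI, 1400 a Cebpe UMI, 573 a Hlf UMI, 222 a Mecom UMI and 198 a Ms4a2 UMI. Without the Irf8 criterion alone the rule would have taken 2727 cells, and without the Cebpa criterion alone 432. The members were also shallower than the 4769 cells, with a median of 11067 against 15756 UMIs. A transcript is missed more often in a shallow cell, and the part of depth in membership was not tested. At the Mpo limit, the 20 members with 10 or 11 Mpo UMIs had a median of 13.3 Mpo and 12.8 Prtn3 UMIs per 10000, and 46 cells just outside, with 8 or 9, had 9.20 and 12.7. Exactly 1 Cebpa UMI was held by 138 members and 92 held more. No member had 10 or more UMIs of Camp, Ngp and Ltf, the highest sum being 9.

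Elane was the most uneven of the 4 major granule transcripts. Mpo had a median of 25 UMIs per member and a range of 10 to 164, Prtn3 24 with 3 to 144, and Ctsg 23 with 0 to 200. Elane had a median of 5 UMIs, was at 0 in 26 members and reached 343. The 23 members with the most Elane held 58.8% of all Elane UMIs, against 30.6% for the same share of members with Mpo, 30.2% with Prtn3 and 32.8% with Ctsg. Elane was at 10 or more UMIs in 87 members, at 1 to 9 in 117 and at 0 in 26.

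The 4 granule genes rose and fell together across cells. On UMIs per 10000 of each cell, Spearman's rho over the 230 members was 0.75 for Mpo with Elane, 0.71 for Mpo with Prtn3, 0.72 for Mpo with Ctsg, 0.70 for Elane with Prtn3, 0.68 for Elane with Ctsg and 0.72 for Prtn3 with Ctsg. In the 7 pools with at least 15 members, rho of Mpo with Elane ran from 0.59 to 0.85. Cd34 went the other way, with rho of -0.29 with Mpo and -0.40 with Elane. In each of those 7 pools its rho with Elane was negative, from -0.55 to -0.28. Points share pools, depth and the Mpo threshold, and cells are not replicates, so these values are a description.

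**Figure D1:**
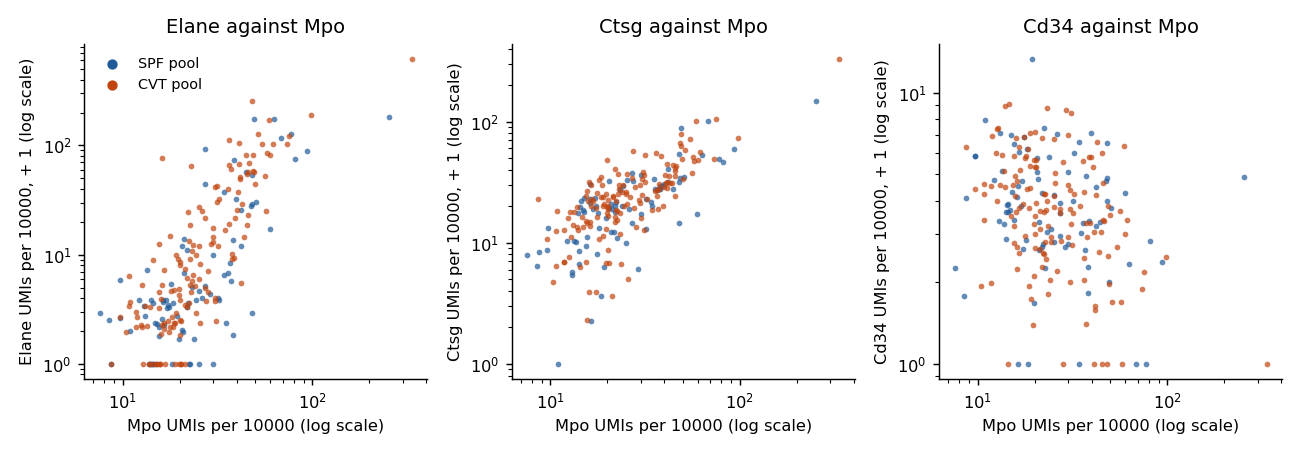
Each point is 1 of the 230 early progenitors, with Mpo UMIs per 10000 on the x axis and Elane, Ctsg or Cd34 UMIs per 10000 plus 1 on the y axis, all log scales. Elane and Ctsg climb with Mpo (rho 0.75 and 0.72), members at the bottom line of the first panel hold no Elane, and Cd34 declines with Mpo (rho -0.29).

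Cells were set apart by their Elane UMIs to describe what else varied with it. Summed over cells, Mpo was at 1618, 2019 and 4493 CPM in members with 0, 1 to 9 and at least 10 Elane UMIs, and Ctsg at 1445, 1796 and 3945 CPM. Ms4a3, a granulocyte-monocyte membrane protein gene, was at 107, 129 and 799 CPM, and Ly6c2, which encodes a Ly6C antigen, at 20.5, 23.2 and 385 CPM. Clec12a, an inhibitory lectin receptor gene, was at 45.2, 84.3 and 299 CPM. Several progenitor genes were lowest in the members with most Elane. Cd34 was at 427, 327 and 220 CPM, Apoe, which encodes apolipoprotein E, at 665, 494 and 222 CPM, and Meis1, a homeobox gene of early progenitors, at 82.1, 72.7 and 30.8 CPM. Gata2, at 57.5, 92.8 and 29.9 CPM, and Kit, at 78.0, 98.3 and 61.5 CPM, were highest in the middle step. Cpa3 was at 394, 381 and 208 CPM. Spi1 was at 205, 200 and 203 CPM in the 3 steps. Median depth was 8533, 10371 and 13569 UMIs in these steps, so depth moved with Elane and its part was not tested.

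A set of members also held mast cell and basophil transcripts, although the rule barred Ms4a2. Cpa3, which encodes mast cell carboxypeptidase A, was found in 125 of 230 members and Mcpt8, a basophil protease gene, in 93. After thinning to 5000 UMIs, Cpa3 was detected in 44.2% of members, against 19.1% of neutrophil progenitors, 2.17% of monocyte-dendritic progenitors, 34.7% of earlier progenitors and 4.43% of erythroid cells. Mcpt8 was detected in 24.6% of thinned members, 25.03% of neutrophil progenitors, 8.95% of monocyte-dendritic progenitors and 1.57% of erythroid cells. Of 2 basophil and mast genes compared by summed UMIs with earlier progenitors, 0 were higher and 0 lower in members in all 8 pools. Among all genes so compared, 11.2% were higher and 11.8% lower. Gata2, a regulator of stem, mast and early erythroid cells, was found in 95 members and Apoe in 155. Both were also present in erythroid cells, Apoe at 611 CPM against 465 in members and Gata2 at 51.3 against 68.4 CPM. Gata2 was lower in members than in earlier progenitors in all 8 pools. The other basophil and mast genes were rare, with Fcer1a in 2 members and Prss34 in 3. Across members, Cpa3 had a rho of -0.11 with Mpo, -0.15 with Elane, -0.21 with Ctsg and -0.25 with Prtn3, as a description.

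Part of the members also held transcripts of other lineages. Of the erythroid genes, Hbb-bs was found in 110 members, Car2 in 152 and Car1 in 94. Car2 was at 131 ± 42.1 CPM in members and 659 CPM in earlier progenitors. The globins were dominated by a single cell of CVT pool 5, which held 1467 of the 1566 globin UMIs of that pool's members. Pool 5 therefore stood at 3605 globin CPM, against 14.2 to 305 CPM in the other 7 pools. In the megakaryocyte list, Pf4 was found in 32 members and Itga2b in 54. In the lymphoid list, Cd79b was found in 70 and Dntt in 15. In all, 16 members passed at least 1 of these limits: 3 Pf4, 5 Car1, 10 Hbb-bs, 5 Retnlg or 30 S100a8 UMIs. Results on gene levels were computed with and without them.

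To place the members among their neighbours, summed UMIs were set beside 3 other gates of the same pools. Neutrophil progenitors (at least 10 Elane UMIs with Cebpe and no Irf8) numbered 761, and monocyte-dendritic progenitors (at least 2 Irf8 UMIs with Csf1r and no Cebpe) 2403. Earlier progenitors (Cd34 and Cd48 with under 10 Mpo UMIs and no Hlf, Mecom, Irf8, Cebpe, Dntt or Gata1) numbered 771. The gates were set on genes of the same cells, so differences between them are a description, with no test. Genes used in a gate are left out of the counts below.

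Azurophil granule genes lay between the earlier and the neutrophil progenitors. Together the 14 genes took 1.44% ± 0.28 of members' UMIs (SD, n = 8 pools), against 0.340% in earlier, 1.16% in monocyte-dendritic and 3.92% in neutrophil progenitors. Mpo and Elane, which set the rule or a gate, fix part of this order. The 12 other genes took 0.846% ± 0.129 in members, 0.299% in earlier, 0.678% in monocyte-dendritic and 1.95% in neutrophil progenitors. Ctsg was at 2771 ± 536 CPM in members, 245 in earlier progenitors, 2110 in monocyte-dendritic progenitors and 6289 in neutrophil progenitors. Prtn3 was at 2702 ± 338 CPM in members and 584, 2875 and 5829 CPM in the same order. Mpo was at 3342 ± 906 CPM and Elane at 2592 ± 916 CPM in members. In neutrophil progenitors Mpo was at 6363 and Elane at 13375 CPM, but Elane and, below its limit, Mpo are gate genes there and among earlier progenitors. Ms4a3 was at 429 ± 152 CPM in members, 46.8 in earlier and 1862 in neutrophil progenitors.

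Against neutrophil progenitors, 9 of the 10 list genes with at least 50 CPM in either gate were lower in members in all 8 pools (Ctsg, Prtn3, Ms4a3, Srgn, Nkg7, Serpinb1a, Cst7, Hp and Igsf6) and none was higher, where 11.8% of 2590 genes were lower and 13.2% higher in this way. Against earlier progenitors 7 of 10 were higher (Ctsg, Prtn3, Ms4a3, Cst7, Hp, Hk3 and Igsf6), where 11.2% of 2797 genes were higher and 11.8% lower. Against monocyte-dendritic progenitors 3 of 11 were higher (Ctsg, Nkg7 and Srgn) and 1 lower (Ctsc), where 7.52% of 2633 genes were higher and 9.42% lower. Srgn was at 1201 ± 185 CPM in members and 1237 in earlier progenitors, and Nkg7, a granule membrane protein gene, at 560 ± 145 and 497 CPM, both close between the gates. Ctsc, which encodes the dipeptidyl peptidase that activates the granule proteases, was at 38.6 ± 11.3 CPM in members and 74.3 in monocyte-dendritic progenitors. Serpinb1a, an elastase inhibitor gene, was at 329 ± 60.1, Cst7, cystatin F, at 160 ± 19.5, Hp, haptoglobin, at 121 ± 43.9, Hk3, a hexokinase gene, at 84.2 ± 22.6 and Igsf6 at 61.0 ± 37.8 CPM. Fcnb, a ficolin of later granulocyte precursors, was found in 7 members.

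**Figure D2:**
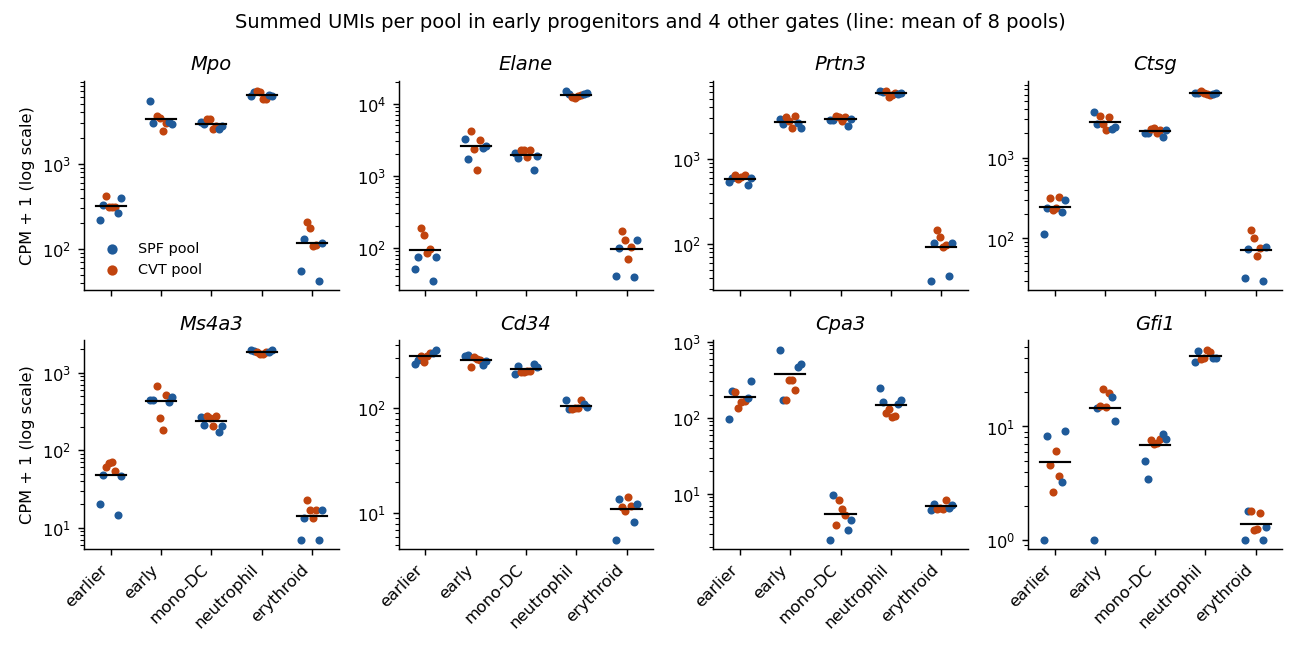
CPM plus 1 on a log scale of 8 genes in 5 gates, 1 point per pool, with a line at the mean of the 8 pools. Prtn3, Ctsg and Ms4a3 in early progenitors lie between earlier and neutrophil progenitors, Mpo, Elane and Cd34 are genes of the rule or of a gate and their order is partly set by it, and Cpa3 is near 0 in the monocyte-dendritic gate (4.48 CPM).

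Regulators separated the members from each neighbour in a different way. Spi1 was at 225 ± 66.9 CPM in members, 222 in neutrophil, 228 in monocyte-dendritic and 116 in earlier progenitors. Gfi1, a repressor that favours the neutrophil branch, was at 13.5 ± 6.36 CPM in members and 41.0 in neutrophil progenitors, and after thinning was detected in 7.14% and 18.6% of cells and in 0.262% of erythroid cells. Gata2 was at 68.4 ± 26.5 CPM, against 18.9 in neutrophil, 8.75 in monocyte-dendritic and 174 in earlier progenitors. Meis1 was at 49.0 ± 24.3 CPM against 166 in earlier progenitors and 15.7 in neutrophil progenitors. Cebpb, which acts in later and emergency granulopoiesis, was at 51.1 ± 25.5 CPM against 110 in neutrophil progenitors.

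Of 12 transcription factors of the list with at least 50 CPM, 7 were higher in members than in neutrophil progenitors in all 8 pools (Gata2, Hoxa9, Ikzf1, Lmo4, Myc, Runx1 and Zeb2) and Cebpb was lower, beside 13.2% and 11.8% of all genes compared. Against monocyte-dendritic progenitors 5 of 12 were higher (Etv6, Gata2, Lmo4, Myb and Myc) and Zeb2 lower, where 7.52% of 2633 genes were higher and 9.42% lower. Against earlier progenitors 2 of 14 were higher (Myb and Spi1) and 3 lower (Gata2, Lmo4 and Meis1), beside 11.2% and 11.8% of all genes compared. Myb was at 259 ± 35.8 CPM in members, Zeb2 at 156 ± 26.7, Lmo4 at 119 ± 39.5, Myc at 115 ± 15.1, Cbfb at 97.7 ± 24.0 and Runx1 at 89.6 ± 17.8 CPM. Etv6, Ikzf1, Hoxa9, Satb1 and Tal1 ran from 61.7 down to 25.2 CPM. Egr1, Per3, Gata1, Id2, Id1, Nfil3, Klf4 and Mycn were each at or below 19.2 CPM, Irf4 was found in no member, and Irf8 and Cebpe were barred by the rule. Cebpa itself was at 146 ± 27.7 CPM, a level set by the rule.

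Growth factor receptors were sparse in these cells, as in the other gates. The 16 genes took 0.042% of UMIs in members, 0.052% in earlier, 0.055% in monocyte-dendritic and 0.058% in neutrophil progenitors. In erythroid cells they took 0.041%. Kit was at 79.0 ± 33.4 CPM in members, 113 in earlier, 37.3 in monocyte-dendritic and 49.2 in neutrophil progenitors. Csf3r, the G-CSF receptor gene, was at 25.5 ± 9.77 CPM in members and 32.4 in neutrophil progenitors, and Flt3 at 17.7 ± 8.55 CPM in members, 35.7 in earlier and 56.2 in monocyte-dendritic progenitors. Csf1r, the M-CSF receptor gene that defines the monocyte gate, was found in 28 members. Il3ra was at 40.9 ± 3.84, Csf2ra at 30.8 ± 16.8 and Csf2rb at 20.5 ± 12.7 CPM, parts of the IL-3 and GM-CSF receptors. Ifngr1, the interferon gamma receptor gene, was at 108 ± 36.5 CPM in members and 326 in neutrophil progenitors, and Tnfrsf1a at 41.1 ± 12.8 CPM. Ifnar1, Il6st, Il6ra, Csf2rb2, Il1rl1 and Epor were each at or below 16.4 CPM.

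Across all genes, the 10 genes with the largest excess in members over neutrophil progenitors were Angpt1, Ctla2a, Adgrg1, Myct1, Lat2, Bcl2, Ifitm1, Sox4, Gata2 and Pou2f2. Adgrg1, an adhesion receptor gene, was at 174 ± 14.95 CPM in members and 46.0 in neutrophil progenitors, Sox4 at 189 ± 27.5 and 58.7 CPM, and Bcl2, a survival gene, at 109 ± 20.6 and 29.1 CPM. In the other direction stood Wfdc21, Gstm1, Rgcc, Clec4a2, Ly6c2, Pglyrp1, Ms4a3, B4galt6, Trem3 and Alas1. Gstm1, a glutathione transferase gene, was at 109 ± 63.6 CPM in members and 523 in neutrophil progenitors, and Pglyrp1, a granule protein that binds peptidoglycan, at 67.8 and 342 CPM.

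Against monocyte-dendritic progenitors the largest excess in members was Cpa3, at 370 ± 208 against 4.48 CPM. It was followed by Cd63, Myct1, 4930519L02Rik, Apoe, Ikzf2, Gata2, Ctla2a, Adgrg1 and Sdsl. Cd63, a granule membrane tetraspanin gene, was at 348 ± 98.5 against 50.005 CPM. The genes furthest below the monocyte gate were F13a1, Ctss, Ctsh, Lgals3, Pyhin1, S100a4, Pld4, S100a6, Ly86 and Cfp. F13a1, a coagulation factor gene of monocytes, was at 33.0 ± 46.9 against 281 CPM, and Ctss, cathepsin S, at 9.37 against 133 CPM. Against earlier progenitors the excess was led by Ctsg, Ms4a3, Clec12a, Anxa3, Prtn3, Igsf6, Rgcc, Hp, Trem3 and Prss57, and the deficit by Csrp3, Car2, Myl10, Mfsd2b, Bcl11a, Gnb4, Ddah2, Meis1, Rnase6 and Rgs1.

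Secretory genes stepped up from earlier progenitors through members to neutrophil progenitors, with monocyte-dendritic progenitors close to members. The 28 genes of the endoplasmic reticulum and its translocon took 0.602% of UMIs in earlier progenitors, 1.07% ± 0.16 in members (SD, n = 8 pools) and 1.45% in neutrophil progenitors. In monocyte-dendritic progenitors they took 0.994% ± 0.049. Of 27 genes with at least 50 CPM, 22 were higher in members than in earlier progenitors in all 8 pools and none was lower, beside 11.2% and 11.8% of all genes compared. Calr, the chaperone calreticulin, was at 1715 ± 590 CPM in members, 669 in earlier and 1836 in neutrophil progenitors. Sec61b was at 1171 ± 134 and Sec61g at 820 ± 68.4 CPM in members, both subunits of the translocon, against 721 and 500 in earlier progenitors. Against neutrophil progenitors 17 of 28 were lower in members, among them Hspa5, Xbp1 and Sec61b, beside 11.8% of all genes. Against monocyte-dendritic progenitors 2 of 27 were higher in members (Calr and Ssr3) and 0 lower, beside 7.52% and 9.42% of all genes.

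Summed shares of cell cycle and ribosomal genes differed less between the gates than those of secretory genes. The 26 G1/S genes took 0.308% of members' UMIs and 0.291% to 0.345% in the 3 neighbours, and the 30 G2/M genes 0.337% and 0.261% to 0.418%. Single genes did differ. Against monocyte-dendritic progenitors, 7 of 18 G2/M and 5 of 21 G1/S genes were lower in members in all 8 pools and 0 higher, beside 9.42% and 7.52% of all genes. Against earlier progenitors, 4 of 12 G2/M and 1 of 22 G1/S genes were higher and 0 lower, beside 11.2% and 11.8%. Dut was at 447 and Hmgb2 at 1263 CPM, the highest of each list, and Hspa8 led the immediate early and heat shock list. The 86 ribosomal protein genes took 36.4% ± 1.48 in members, 36.7% in earlier, 35.7% in monocyte-dendritic and 34.6% in neutrophil progenitors. Of 83 compared with neutrophil progenitors, 34 were higher in members in all 8 pools and 2 lower (Rpl41 and Rps27l), beside 13.2% and 11.8% of all genes. Against monocyte-dendritic progenitors 13 were higher and 1 lower, beside 7.52% and 9.42%. Against earlier progenitors 10 were higher and 12 lower, beside 11.2% and 11.8%. Npm1, Ncl and Nop10, the leading ribosome biogenesis genes, were at 2409, 1148 and 1018 CPM. The 13 mitochondrially encoded genes took 3.12% ± 0.40.

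Surface, sensing and survival genes completed the picture. Plac8 was at 4815 ± 416 CPM in members, 2227 in earlier and 6617 in neutrophil progenitors. Cd48 was at 296 ± 55.3 and Emb, an immunoglobulin-family adhesion gene, at 342 ± 121 CPM. Of the late granule list, S100a8 was at 552 ± 287, S100a9 at 346 ± 218 and Lyz2 at 300 ± 61.5 CPM, with S100a8 at 620 CPM in erythroid cells. Of the monocyte and dendritic list, Zeb2, Ms4a6c and Psap led, with Ms4a6c at 122 ± 25.1 CPM against 567 in the monocyte gate. Ifitm2, Ifitm3 and Ifitm1 led the interferon-stimulated list, at 787, 425 and 373 CPM. Nfkbia, Nfkb1 and Irak1 led the microbial sensing list, each at or below 61.3 CPM. Bax and Pim1 were at 136 and 118 CPM, and Mllt3, the second of the stem cell list after Meis1, was found in 26 members.

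The first question on housing was whether CVT mice held more early progenitors. The share of KL cells was 0.318%, 0.728%, 0.727% and 0.772% in SPF pools 1, 2, 7 and 8, and 0.640%, 0.766%, 0.875% and 1.07% in CVT pools 3 to 6. SPF pool 1, with 6 members, was the lowest (95% Wilson interval 0.146% to 0.692%), CVT pool 6 the highest (0.802% to 1.43%), and the groups overlapped. The mean was 0.838% ± 0.183 in CVT and 0.636% ± 0.213 in SPF (SD, n = 4), a difference of 0.202 percentage points with p = 0.229 in a two-sided exact permutation test over 70 regroupings of the pools. The smallest p this design allows is 0.0286. The mean was higher in CVT by 0.180 points within pools 1 to 4 and by 0.224 points within pools 5 to 8.

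The rule counts raw UMIs, and its answer moved with depth. Cells with at least 5000 UMIs were thinned to 5000 and the same rule applied, with these cells alone as the denominator. The share was 1.499% to 2.07% in CVT pools and 0.874% to 1.40% in SPF pools, with no overlap. The means were then 1.72% ± 0.27 and 1.11% ± 0.24 (SD, n = 4), p = 0.0286 in the same exact test. CVT pools 3 and 4 moved most under thinning, from 31 and 32 to 75 and 82 cells, and these were the pools with the deepest cells (medians of 10206 and 12771.5 UMIs). With fewer UMIs read per cell, an Irf8 UMI is missed more often. CVT pools 3 and 4 also held most cells that met the rule without its Irf8 criterion (11.1% and 14.8% of KL cells). The other pools held 5.43% to 8.63%. The parts of depth and of these cells in the gain cannot be told apart here and were not tested. A total of 25492 cells had 5000 UMIs or more, and 6 members had fewer and were left out of the thinned share. Taken as a share of cells with at least 10 Mpo UMIs, early progenitors were at 3.05% ± 1.196 in CVT and 2.95% ± 0.99 in SPF, exact p = 0.943. In sorted cells, a share says nothing of the number of cells in the marrow.

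**Figure D3:**
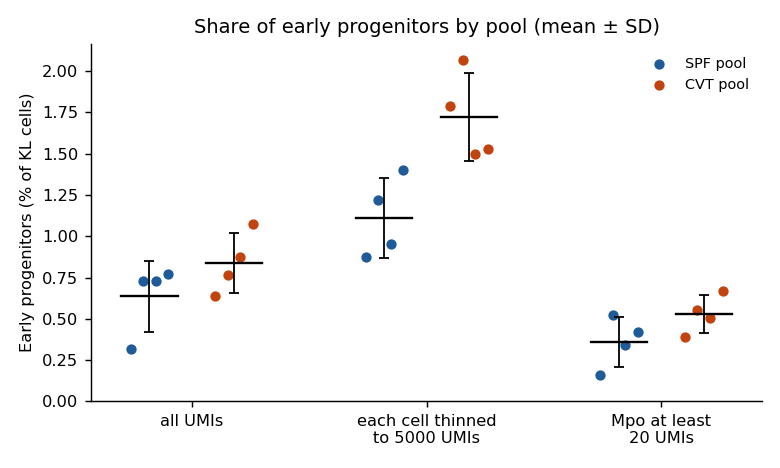
Early progenitors as a percentage of KL cells in each pool, for the rule on all UMIs, for cells thinned to 5000 UMIs and for an Mpo limit of 20 UMIs, with mean and SD of 4 pools per group. The thinned percentage is of KL cells with at least 5000 UMIs only. Groups overlap under the rule itself and under the higher Mpo limit, and are apart after thinning (1.499% to 2.07% in CVT, 0.874% to 1.40% in SPF).

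The second question was which genes differed between CVT and SPF members. UMIs were summed per pool and tested with edgeR's quasi-likelihood test over 4089 genes, with Benjamini-Hochberg adjustment. One gene passed an adjusted p of 0.05, Capg, higher in CVT (0.0245% of genes tested), and none passed as lower (0% of genes). The unadjusted p was under 0.05 for 100 genes higher in CVT and 88 genes lower in CVT, and DESeq2 called 0 genes in each direction (its unadjusted p was under 0.05 for 23 higher and 29 lower genes). The 4 CVT pools lay wholly above the 4 SPF pools for 44 genes (1.08%) and wholly below for 88 (2.15%). The median log2 fold change of all genes was 0.0042. No gene had a housing effect that differed between pools 1 to 4 and pools 5 to 8 at an adjusted p of 0.05 in edgeR.

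Capg encodes a gelsolin-family protein that caps actin filaments. Its UMIs numbered 0, 13, 5 and 6 in SPF pools 1, 2, 7 and 8 and 30, 36, 30 and 32 in CVT pools 3 to 6. In CPM these were 0, 35.3, 28.5 and 15.4 against 85.2, 81.4, 69.1 and 60.6, so that each CVT value was above each SPF value. In SPF pool 1, however, a count of 0 allows up to 63.2 CPM, above CVT pool 6, so separation of that pool was not detectable at its depth. At least 1 Capg UMI was found in 83 of 146 CVT members and 21 of 84 SPF members. The log2 fold change was 1.62 (SE 0.30, edgeR adjusted p = 0.0402). The call rested on few UMIs: it was lost with DESeq2 (adjusted p = 0.345), with an Mpo limit of 20 UMIs (0.251) and without CVT pool 3, 4 or 5 or SPF pool 7 or 8 (0.0906 to 0.828), while the log2 fold change stayed between 1.33 and 2.05 when any pool was left out.

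In the neighbouring gates of the same pools Capg was close between the groups. It was at 59.0 ± 6.10 CPM in CVT and 57.0 ± 11.2 in SPF neutrophil progenitors, 82.4 ± 10.2 and 83.9 ± 12.7 in monocyte-dendritic progenitors, and 99.9 ± 12.8 and 105 ± 14.7 in earlier progenitors (SD, n = 4). In members it was at 74.0 ± 11.3 CPM in CVT and 19.8 ± 15.6 in SPF, so the SPF members stood below the other SPF gates. Whether the housing effect differs between gates was not tested.

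**Figure D4:**
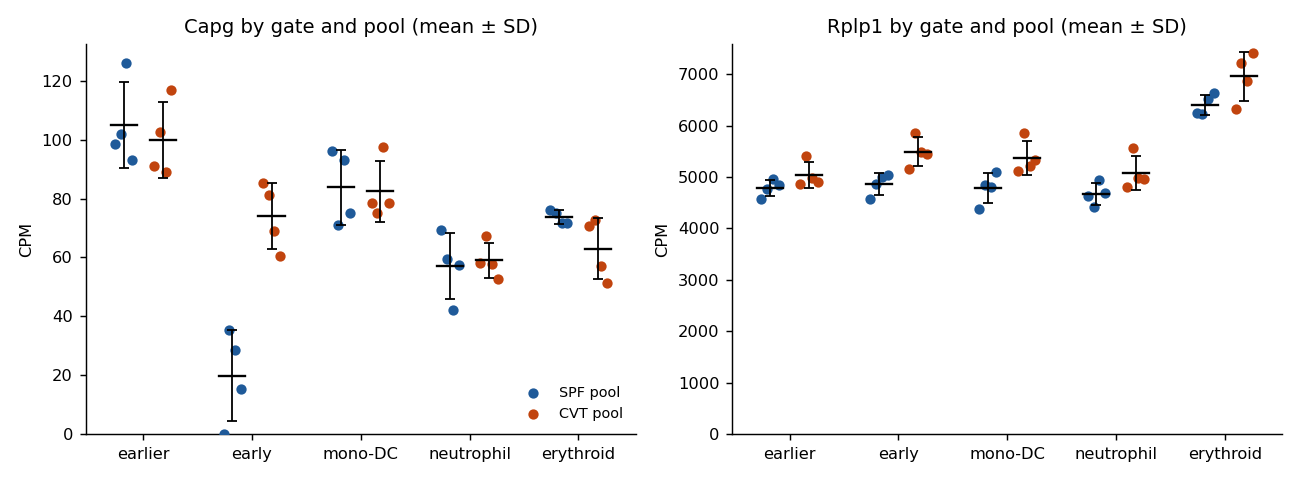
CPM of Capg and of Rplp1 in 5 gates, 1 point per pool, with mean and SD of 4 pools per group. Capg is apart between CVT and SPF pools in early progenitors (74.0 against 19.8 CPM on average) and overlaps in the other 4 gates, while Rplp1 averages higher in CVT in all 5.

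The naming rule then took genes whose pools did not overlap, so that separation was a condition of the choice. Of these, 8 are given here, and none passed the test (edgeR adjusted p = 0.987 for each). Among all genes tested, pools did not overlap for 1.08% as higher and 2.15% as lower in CVT. Higher in CVT were Ilk, which encodes integrin-linked kinase, at 57.2 ± 2.26 against 29.02 ± 5.89 CPM, Aim2, a sensor of cytosolic DNA, at 35.6 ± 6.91 against 14.2 ± 10.3 CPM, and the ribosomal genes Rplp1 and Rps2. Rplp1 was at 5494 ± 288 against 4867 ± 211 CPM and Rps2 at 5726 ± 150 against 5149 ± 219 CPM. Lower in CVT were Hsph1, a heat shock protein gene, at 16.8 ± 4.62 against 49.3 ± 24.2 CPM, and Gimap1, a lymphocyte GTPase gene, at 32.3 ± 6.45 against 58.5 ± 11.6 CPM. Gnaq, a G protein subunit gene, was at 15.6 ± 6.91 against 38.8 ± 6.44 CPM and Ube2g1, a ubiquitin-conjugating enzyme gene, at 41.4 ± 4.01 against 74.0 ± 9.38 CPM. The differences of Gnaq, Hsph1 and Aim2 rested on 66, 71 and 80 UMIs over the 8 pools. SPF pool 1 held 0 UMIs of Aim2, 1 of Ilk, 2 each of Gimap1 and Gnaq, and 4 each of Hsph1 and Ube2g1. A count of 0 there allows up to 63.2 CPM, above the highest CVT pool for Aim2 (45.2 CPM). Separation of that pool for Aim2 was therefore not detectable at its depth.

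Lgals1, galectin-1, was chosen after its values were seen. It was at 737, 500, 417 and 567 CPM in SPF pools 1, 2, 7 and 8 and 736, 703, 704 and 784 in CVT pools 3 to 6, so that SPF pool 1, with 35 UMIs, overlapped with CVT. The log2 fold change was 0.53 (SE 0.12, edgeR adjusted p = 0.334). It passed without SPF pool 1 (adjusted p = 0.0462), without the 16 cells with genes of other types (0.0390) with the pool set as a block (0.0465) and with no filter on low counts (0.0097).

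No azurophil granule gene passed the test for housing. Apart from Mpo, a gene of the rule, 12 passed the filter on low counts. None was called, none had an unadjusted p under 0.05, and their median log2 fold change was 0.06, beside 0.0042 for all genes. Mpo was at 3081 ± 526 CPM in CVT and 3602 ± 1207 in SPF, as a description, with SPF pool 1 at 5411 CPM and the other 7 pools between 2389 and 3593. In SPF pool 1, a single member held 131 of the 257 Mpo UMIs, and the other 5 members together were at 2976 CPM. Elane ran from 1183 CPM in CVT pool 5 to 4109 in CVT pool 3, with the SPF pools between 1721 and 3221 (log2 fold change 0.21, SE 0.21). Prtn3 was at 2810 ± 410 in CVT and 2594 ± 258 CPM in SPF, and Ctsg at 2817 ± 515 and 2724 ± 631 CPM. The difference in Elane changed sign without CVT pool 3. Fcnb did not pass the filter.

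Regulators and receptors gave no call either. Of 15 transcription factors tested, besides Cebpa, none was called, with Runx1 alone at an unadjusted p under 0.05 (log2 fold change -0.44, SE 0.20, 74.7 ± 9.98 CPM in CVT and 105 ± 6.52 in SPF, edgeR adjusted p = 0.987). Spi1 differed by -0.20 (SE 0.16) on the log2 scale. None of 6 receptors tested was called, and their values ran from -0.26 for Kit to 0.49 for Csf2ra. Of the sensing list 3 genes passed the filter and of the interferon-stimulated list 5, and none was called.

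Ribosomal protein genes leaned towards CVT without a gene passing the test. Of 83 tested, 77 had a positive and 6 a negative log2 fold change, with a median of 0.13, beside 2070 positive and 2019 negative of all genes. Their pools were apart and higher in CVT for 13 of 83 and lower for 0, where 1.08% and 2.15% of all genes were. Summed, ribosomal UMIs took 37.4% ± 0.58 in CVT and 35.4% ± 1.45 in SPF members (SD, n = 4), and SPF pool 7 at 37.3% overlapped with the CVT range of 37.0% to 38.2%. The difference of 2.004 percentage points had an exact permutation p of 0.0857 (0.514 after Benjamini-Hochberg adjustment over 6 lists), and was 2.81 points within pools 1 to 4 and 1.196 within pools 5 to 8. Rplp1 was higher on average in CVT in the other gates as well, for example 5376 ± 330 against 4784 ± 295 CPM in monocyte-dendritic progenitors. The summed ribosomal share there was 36.3% to 37.1% in CVT pools and 33.4% to 35.4% in SPF pools, without overlap. In earlier progenitors it was 37.3% to 37.8% and 34.8% to 37.1%, also without overlap. Pools overlapped in neutrophil progenitors (34.7% to 35.8% and 33.1% to 35.2%) and in erythroid cells (36.0% to 38.1% and 36.2% to 38.3%). Whether the housing effect on this share differs between gates was not tested.

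**Figure D5:**
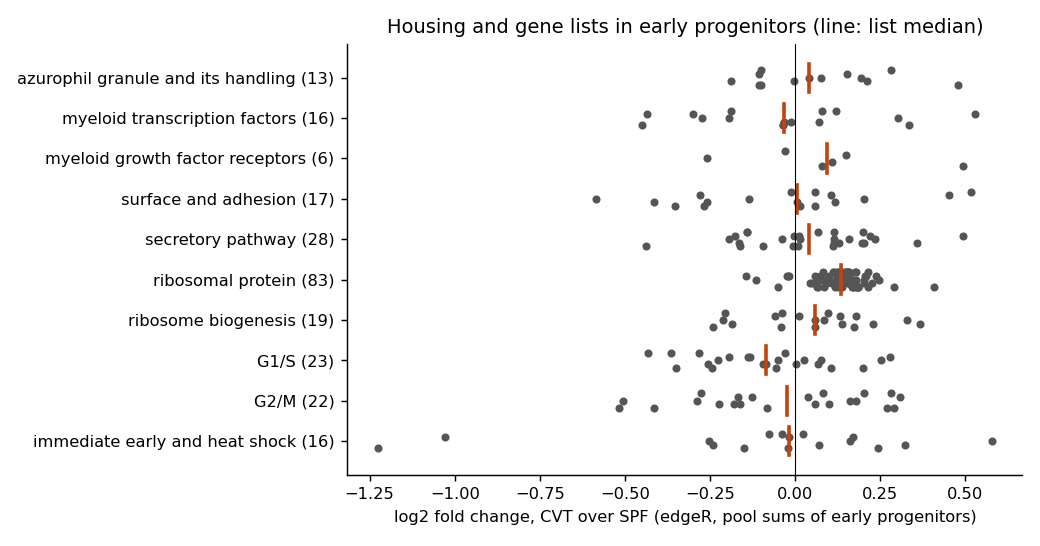
Log2 fold change of CVT over SPF in early progenitors for each tested gene of 10 lists, 1 point per gene, with a line at the list's median and the number of genes in brackets. Ribosomal protein genes sit mostly right of 0 (median 0.13, 77 of 83 positive), and the other lists straddle 0.

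The other 5 summed lists differed by less than the spread between pools. Azurophil genes took 1.42% ± 0.32 in CVT and 1.45% ± 0.29 in SPF (exact p = 0.971), and without Mpo 1.12% ± 0.28 and 1.09% ± 0.17 (exact p = 0.857). G1/S genes took 0.300% ± 0.035 and 0.315% ± 0.043 (exact p = 0.657), and G2/M genes 0.332% ± 0.062 and 0.341% ± 0.039 (exact p = 0.8286). Mitochondrially encoded genes took 3.01% ± 0.17 and 3.22% ± 0.56 (exact p = 0.714), and immediate early and heat shock genes 0.524% ± 0.102 and 0.536% ± 0.078 (exact p = 0.971). Each had an adjusted p of 0.971 over the 6 lists.

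Genes of other lineages were compared too, and none was called in the edgeR test as designed. Hbb-bs and Hba-a2 were called higher in CVT with the pool set as a block, and Car1 without CVT pool 6. In the basophil and mast list, Cpa3 was at 257 ± 71.5 CPM in CVT and 482 ± 249 in SPF (log2 fold change -0.64, SE 0.25, edgeR adjusted p = 0.987), and Mcpt8 at 73.3 ± 13.1 and 43.7 ± 16.4 CPM (0.60, SE 0.24). Cpa3 passed as lower in CVT without SPF pool 2, the SPF pool where it was lowest at 171 CPM. All 5 erythroid genes tested had positive values, with a median of 2.25, and Hbb-bs, at 2.60, moved with the single globin-rich cell of CVT pool 5 described above. Car1 was at 143 ± 99.2 CPM in CVT and 55.0 ± 27.5 in SPF. The secretory list of 28 genes had a median of 0.04 and the surface list of 17 a median of 0.01, with no call in either. Median log2 fold changes were -0.05 for 6 late granule genes besides Camp and Ngp, 0.07 for 5 monocyte and dendritic genes, -0.09 for 23 G1/S genes and for 10 survival genes, -0.02 for 22 G2/M and 16 immediate early and heat shock genes, and 0.06 for 19 ribosome biogenesis genes. The 12 mitochondrially encoded genes tested had a median of 0.0025, and stem cell, lymphoid and megakaryocyte lists had 2 tested genes or fewer each. No gene of these lists was called.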

How the data were processed

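KL cells of 8 pools were profiled with the 10x Chromium 3′ v2 chemistry on an Illumina sequencer. The authors made the UMI counts per gene and cell with Cell Ranger (version not given in the sources used here), and the submitters' notes name the build mm9. The deposited table holds these counts, whole and not normalized, for 27998 genes and 29891 cells of 2759 to 49732 UMIs, as the file shows. UMIs are 3′ tags and were not divided by gene length. Members and gene lists were chosen with earlier results of these data known. Counts were summed over the members of each pool and tested with edgeR 4.0.16 (R 4.3.3, TMM, filterByExpr, quasi-likelihood F test), with DESeq2 1.42.0 as an alternative. The code was tested on simulated counts. Shares and summed lists were compared by two-sided exact permutation over the 70 regroupings of 4 against 4 pools (scipy 1.17.1). Genes were named by rule: all granule, transcription factor and receptor genes, the 3 highest of other lists, housing calls, the 5 smallest p per direction with pools apart, and the 10 largest gate differences per direction at 50 CPM or more (log2 of CPM plus 10). Scrublet marked 92 cells (0.308%), too few to have worked, so no cell was removed as a doublet, and 1 member was among them. Cells were placed in pools by the number ending their names, matched to the labels' sample descriptions, a mapping that cell numbers alone could not check. Replicate pools hold different mice. The other settings were RLE scaling, no filter on low counts, the pool set as a block, other Mpo limits, cell quality limits, no cells with genes of other types, and each pool left out. Some genes given by the naming rule are not reported here.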

Additional observations from a re-analysis of the deposited data

Results flagged for a closer look

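In groups of 4 pools, a pool was singled out where its gap to the nearest other pool, over the range of the group, was above Dixon's 95% limit. Of 52 groups of 4 values tested, 5 were singled out, and chance gives about 1 in 20. SPF pool 1, the pool with 6 members and 47494 UMIs, was singled out 4 times. It had the lowest share of early progenitors among the SPF pools (0.318%). It had the highest Mpo level (5411 CPM), the highest azurophil granule share (1.89% of UMIs) and the highest mitochondrially encoded share (4.05% of UMIs). Mpo chose the cells and is part of the azurophil share, so those values are a description. A single member of SPF pool 1 held 131 of its 257 Mpo UMIs. Without that member the other 5 were at 2976 Mpo CPM, 1.26% azurophil and 2.75% mitochondrially encoded UMIs. CVT pool 5 was singled out for 3605 globin CPM, of which 1 cell held 1467 of 1566 UMIs. No housing effect on a named gene differed between pools 1 to 4 and pools 5 to 8 at an adjusted p of 0.05 in edgeR.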

How the results depend on the processing

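The difference in share of early progenitors kept its direction in every setting tried. It passed only with cells thinned to 5000 UMIs, a share of cells with at least 5000 UMIs (0.609 points, exact p = 0.0286). Leaving out each pool gave 0.0961 to 0.268 points. Genes called higher in CVT numbered 9 with no filter on low counts, 0 with DESeq2, 4 with the pool set as a block (Capg, Lgals1, Hbb-bs and Hba-a2), 0 with an Mpo limit of 20 UMIs, 2 without cells with genes of other types, and 0 to 2 when a pool was left out (with Car1 without CVT pool 6). Genes called lower numbered 3 with no filter and 0 to 2 when a pool was left out (Cpa3 and Apoe without SPF pool 2). The unfiltered calls included globins, Car1, Pf4 and Retnlg. Of the summed lists, G2/M turned to 0.0380 points with an Mpo limit of 20 and stood at -0.0643 within pools 1 to 4 and 0.0468 within pools 5 to 8, immediate early genes turned to 0.00598 as a mean over cells, and azurophil genes to 0.0205 without Mpo, a setting chosen after seeing the data. Leaving out pools gave -0.136 to 0.113 for azurophil, -0.0330 to 0.00204 for G1/S, -0.0372 to 0.00838 for G2/M, -0.327 to 0.0697 for mitochondrial, -0.0549 to 0.0240 for immediate early and 1.48 to 2.64 for ribosomal genes. Among named genes, Mpo turned from -0.11 to 0.0045 with no filter and lay between -0.18 and 0.0863 with a pool left out (0.0005 without CVT pool 5). Elane turned to -0.0461 without CVT pool 3 (up to 0.46 without CVT pool 5), and Cebpa, at -0.13 without SPF pool 2, turned to 0.0341 with no filter, 0.0522 with an Mpo limit of 20, 0.0051 without cells with genes of other types, 0.0132 without SPF pool 1 and 0.0401 without SPF pool 8. The cause of these shifts was not tested. Removal of doublets was not run because the caller marked too few cells. No paired analysis was possible because the groups share no replicate number. SPF pool 1 limits every comparison, since its 6 cells put the limit that a count of 0 allows at 63.2 CPM.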

Other observations

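The proportion of members with at least 10 Elane UMIs was noticed after the data were seen. It was 33.3%, 25%, 26.7% and 28.6% in SPF pools 1, 2, 7 and 8 and 38.7%, 53.1%, 39.5% and 44.4% in CVT pools 3 to 6, with no overlap (two-sided exact permutation p = 0.0286, the smallest this design gives). With Elane counted per 10000 UMIs of the cell and the same limit of 10, the pools overlapped (40.4% ± 6.81 in CVT and 32.4% ± 12.4 in SPF, SD, n = 4, exact p = 0.314). Summed Elane levels overlapped as well, as given above.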
